A study of Homo sapiens with 34 samples.

Results

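Imprinted genes are expressed mainly from 1 parental copy, and 10 of them were followed here across the cardiac differentiation of human embryonic stem cells (ESCs): H19, IGF2, CDKN1C, DLK1, MEG3, PEG3, PEG10, MEST, NNAT and SNRPN. They were chosen by name, and for each the RefSeq row with the largest total count was taken from a table of raw read counts, which gave 10 genes of 23189 in all. The cells were the H1 line, infected with a lentivirus and selected with puromycin. WT cells carried an shRNA (a short hairpin RNA that lowers the level of its target mRNA) against GFP or an empty vector. NKX2-5 shRNA, ZEB2 shRNA and ZNF503 shRNA cells carried a hairpin against the named transcription factor. Each target was represented by 1 line made with the hairpin of best knockdown among those tested, so the effect of a target and any difference particular to a line cannot be told apart. RNA was taken before differentiation (day 0) and after 2, 6 and 10 days of a protocol that activates and then inhibits WNT signalling. The groups hold 2 libraries each. At day 10 replicates 3 and 4 of WT and ZEB2 shRNA cells and replicates 1 and 2 of NKX2-5 shRNA cells were used, while no day 10 library of ZNF503 shRNA cells was analysed here, which leaves 30 libraries in 15 groups.

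Imprinting is set by DNA methylation laid down differently in egg and sperm and kept on 1 parental copy through later cell divisions. The marked control regions act on clusters of neighbouring genes, often through a long noncoding RNA or an insulator. Many paternally expressed members promote fetal and placental growth and many maternally expressed ones restrain it. Imprinted marks are also known to be lost or gained in cultured pluripotent cells, where they can differ between lines. The counts carry no information on the parental copy, so every value below is the summed level of both copies. In bulk RNA, fewer cells of a type and less RNA per cell cannot be told apart.

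Library totals ranged from 9189943 to 90814577 counts, and were lowest at day 10 (9189943 to 29549874). Levels are given as counts scaled to a library total of 1000000 (CPM) on TMM-scaled totals, and pairs of values are those of the 2 libraries. A count of 3 in 1 library was worth between 0.0336 and 0.0800 CPM before differentiation, and between 0.0927 and 0.323 CPM at day 10. The targeted NKX2-5 lay at 0.761 to 0.993 CPM in NKX2-5 shRNA cells at day 6 against 50.4 to 84.2 CPM in WT cells. ZNF503 lay at 0.611 to 0.648 CPM in its knockdown against 8.71 to 9.33 CPM in WT cells, and ZEB2 at 54.6 to 57.1 CPM against 94.1 to 96.8 CPM, all at day 6. At day 0 these 3 genes were at most 0.419 CPM in every library, and no knockdown of them passed the test there. At day 2 ZNF503 did not pass in its own line (0.999 to 1.75 beside 1.09 to 1.96 CPM in WT, log2 fold change -0.23 ± 0.40, adjusted p = 0.714), nor did ZEB2 (11.2 to 12.5 beside 17.6 to 18.1 CPM, adjusted p = 0.185), and NKX2-5 was too low to be tested. At day 10 NKX2-5 was lower in its line (log2 fold change -6.17 ± 0.69, adjusted p = 0.000796), while ZEB2 did not pass (54.95 and 54.96 beside 105 to 117 CPM, -1.02 ± 0.34, adjusted p = 0.0793). Of the markers of pluripotent cells (POU5F1, NANOG, SOX2, DNMT3B and LIN28A), the summed level lay between 3757 and 4761 CPM in ESCs, falling by day 10 to between 130.3 and 319 CPM. Markers of cardiomyocytes (TNNT2, MYH6, MYL7, ACTN2 and NKX2-5, itself a target) reached 11574 to 14179.6 CPM in WT cells at day 10.

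The promoter windows of RefSeq (GRCh38.p14, 250 bases before to 50 bases after a transcript start) held 4 of the 10 genes: H19, MEG3, MEST and SNRPN. They are shown because these 4 genes stand for both parental classes, the noncoding RNAs H19 and MEG3 being maternally and MEST and SNRPN paternally expressed. For each gene the window with the most CpG dinucleotides is printed 5′ to 3′ on the gene's strand. Capitals mark TGCCGC on either strand (GCGGCA where it is on the opposite strand), the hexamer bound by ZFP57, a zinc finger protein that keeps imprints methylated.
H19, chr11:2001217-2001516, minus strand: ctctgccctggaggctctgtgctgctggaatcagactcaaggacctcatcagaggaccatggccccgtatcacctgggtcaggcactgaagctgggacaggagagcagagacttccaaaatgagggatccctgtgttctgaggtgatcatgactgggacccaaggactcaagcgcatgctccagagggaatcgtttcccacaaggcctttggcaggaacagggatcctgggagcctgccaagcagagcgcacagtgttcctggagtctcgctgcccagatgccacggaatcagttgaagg
MEG3, chr14:100825858-100826157, plus strand: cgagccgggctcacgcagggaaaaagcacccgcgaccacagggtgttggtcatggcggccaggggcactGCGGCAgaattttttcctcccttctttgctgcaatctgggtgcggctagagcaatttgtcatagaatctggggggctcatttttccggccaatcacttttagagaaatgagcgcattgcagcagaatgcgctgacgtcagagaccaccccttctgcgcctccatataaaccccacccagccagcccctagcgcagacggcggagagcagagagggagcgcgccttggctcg
MEST, chr7:130491835-130492134, plus strand: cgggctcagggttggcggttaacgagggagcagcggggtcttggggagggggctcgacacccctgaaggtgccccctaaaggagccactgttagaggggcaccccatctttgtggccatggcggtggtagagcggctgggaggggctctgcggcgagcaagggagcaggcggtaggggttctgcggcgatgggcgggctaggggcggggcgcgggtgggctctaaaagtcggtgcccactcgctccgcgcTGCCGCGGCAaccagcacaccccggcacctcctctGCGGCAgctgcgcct
SNRPN, chr15:24954737-24955036, plus strand: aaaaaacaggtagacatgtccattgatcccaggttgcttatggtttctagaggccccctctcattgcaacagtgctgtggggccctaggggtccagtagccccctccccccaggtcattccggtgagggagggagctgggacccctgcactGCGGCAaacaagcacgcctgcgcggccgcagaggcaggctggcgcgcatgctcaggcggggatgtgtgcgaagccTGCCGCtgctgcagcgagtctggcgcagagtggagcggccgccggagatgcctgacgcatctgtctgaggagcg
The H19 window held 6 CpG dinucleotides and no hexamer. The MEG3 window held 19 and 1 hexamer, the SNRPN window 18 and 2, and the MEST window 25 and 3, of which 2 overlap as a palindrome. Among all 35116 promoter windows of this length, the median was 14 CpG dinucleotides and 16.7% held the hexamer. The printed windows were picked for their CpG content, and the hexamer itself holds a CpG. They therefore cannot be weighed against that share. A match of letters in these windows is a description and does not show that ZFP57 binds there in these cells.

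In WT ESCs the 10 genes covered a wide range of levels. Per kilobase of annotated exon, SNRPN was highest at 276 CPM, followed by NNAT at 59.3, MEST at 57.3 and PEG10 at 38.4 CPM per kilobase. CDKN1C stood at 7.42 CPM per kilobase, while H19, PEG3, DLK1 and IGF2 were between 0.178 and 0.633. MEG3 had no counts in either WT library. The plot of levels by day and line shows how these levels separated later.

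**Figure D1:**
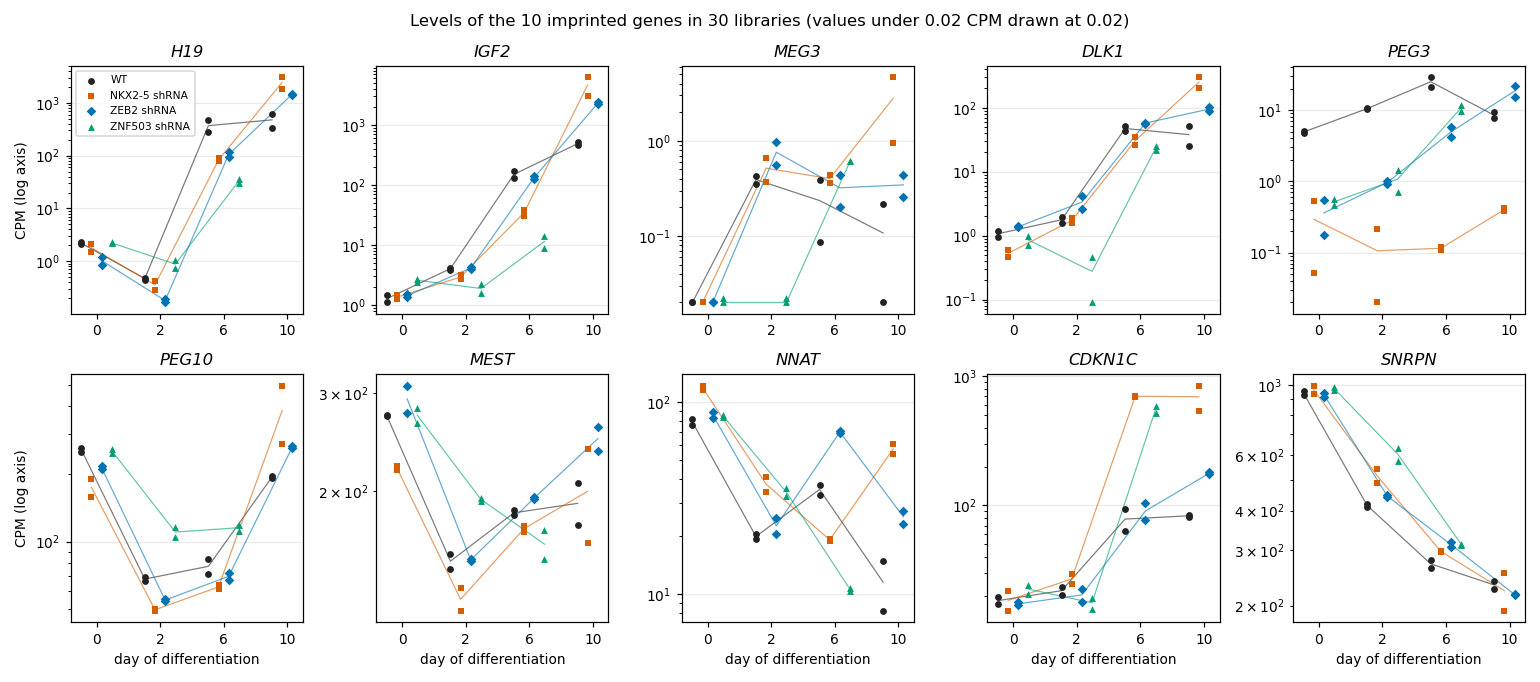
Level of each of the 10 imprinted genes (CPM, log axis) by day of differentiation, 1 point per library and a line through the group means, for WT, NKX2-5 shRNA, ZEB2 shRNA and ZNF503 shRNA cells. H19, IGF2 and DLK1 climbed steeply after day 2, SNRPN declined in each line, and PEG3 of WT cells lay above the other lines from day 0 to day 6.

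During differentiation of WT cells the growth-related genes of chromosomes 11 and 14 rose most. At day 2, 2 of 10 genes passed the study's threshold of a 4-fold change at a false discovery rate (FDR) of 10%, 1 higher and 1 lower, where 8.36% of 17217 genes did. At day 6, 3 genes (H19, IGF2 and DLK1) were at least 8-fold higher at 1% FDR and none lower, against 10.2% of all genes tested in either direction and 6.28% higher. The same threshold at day 10 was passed by these 3 genes, again all higher, against 15.5% and 10% of all genes. At 5% FDR with no fold threshold, 6 genes rose and 4 fell by day 6, where 60.9% of all genes passed, and 8 and 9 genes passed at days 2 and 10, where 44.1% and 73.8% of all genes did. The median log2 fold change of the 10 genes was 2.25 at day 6, or 1.84 with MEG3 at its lower bound, beside 0.03 over all genes tested. Each test named here and below is edgeR's quasi-likelihood test with Benjamini-Hochberg adjustment over all genes of the fit, and each ± is 1 standard error.

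IGF2, which encodes a fetal growth factor and lies on chromosome 11 (2150342 to 2179621, minus strand, GRCh37), was at 1.44 and 1.10 CPM in WT cells at day 0. It reached 3.89 and 4.17 CPM at day 2, 132 and 169 CPM at day 6, and 516 and 462 CPM at day 10. No library of one day overlapped another, and the log2 fold change against day 0 was 8.64 ± 0.19 at day 10 (adjusted p = 4.83e-10). H19, a noncoding RNA downstream of IGF2 (2016396 to 2025782) that shares its enhancers and is the precursor of miR-675, first fell. Its levels were 2.11 and 2.28 CPM at day 0, 0.450 and 0.491 at day 2, 276 and 464 at day 6 and 616 and 336 at day 10. The fall at day 2 was 2.18 ± 0.59 on the log2 scale (adjusted p = 0.0130), and the later rise was 7.42 ± 0.37 at day 6 (adjusted p = 8.85e-08). The fall rested on 14 and 8 counts at day 2, and without replicate 1 or 2 of day 2 it missed 5% FDR (adjusted p = 0.105 and 0.0504).

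CDKN1C, a maternally expressed inhibitor of cyclin-dependent kinases on the same arm (2904443 to 2907005, minus strand), moved later and less. WT levels were 19.6 and 17.2 CPM at day 0 and 20.3 and 23.6 at day 2, a difference that did not pass the test. They then rose to 63.1 and 94.0 CPM at day 6 and 82.0 and 84.4 at day 10, a log2 fold change of 2.24 ± 0.18 at day 10 (adjusted p = 1.58e-06).

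DLK1, a paternally expressed membrane protein related to Notch ligands (chromosome 14, 101192042 to 101204561, plus strand), rose between days 2 and 6. WT levels were 0.961 and 1.18 CPM at day 0, 1.58 and 1.96 at day 2, 51.3 and 43.3 at day 6 and 50.9 and 25.1 at day 10. The log2 fold change at day 6 was 5.49 ± 0.34 (adjusted p = 4.51e-07). MEG3, the maternally expressed noncoding RNA downstream of it (101245747 to 101327368, plus strand), remained close to the limit of detection. Its WT libraries held 0 and 0 counts at day 0, 11 and 7 at day 2, 2 and 16 at day 6 and 0 and 2 at day 10. At day 2 it was at least 4.89-fold higher than the floor of 3 counts in a day 0 library (adjusted p = 0.0130), and without any 1 of the 4 libraries it missed 5% FDR (adjusted p from 0.0564 to 0.0655) but not 10%. At day 6 MEG3 passed 5% FDR, at least 2.95-fold above that floor, mainly on the 16 counts of replicate 2. All 15 MEG3 rows of the table were low, the row used being the largest at 354 counts over 30 libraries.

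The paternally expressed PEG3, PEG10, MEST, NNAT and SNRPN took other courses. PEG3, a zinc finger protein (chromosome 19, 57321445 to 57352096, minus strand), was at 4.83 and 5.02 CPM at day 0, 10.3 and 10.7 at day 2, 21.0 and 29.0 at day 6 and 9.28 and 7.64 at day 10 in WT cells. Its rise to day 6 was 2.37 ± 0.20 on the log2 scale (adjusted p = 4.14e-06). PEG10, a gene derived from a retrotransposon with a role in the placenta (chromosome 7, 94285637 to 94299007, plus strand), fell from 262 and 251 CPM at day 0 to 69.5 and 66.6 at day 2, and returned to 192 and 195 by day 10. Its log2 fold change was -1.87 ± 0.10 at day 2 (adjusted p = 7.19e-07) and -0.35 ± 0.10 at day 10 (adjusted p = 0.00930), the latter missing 5% FDR without WT day 0 replicate 1. MEST, which encodes a hydrolase-like protein (chromosome 7, 130126012 to 130146306, plus strand), varied least, between 145 and 274 CPM in the 8 WT libraries.

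NNAT, a small membrane protein of neural and endocrine cells (chromosome 20, 36149608 to 36152092, plus strand), fell from 81.6 and 76.0 CPM at day 0 to 14.9 and 8.17 at day 10. The log2 fold change was -2.66 ± 0.22 (adjusted p = 1.56e-06). SNRPN, whose protein SmN takes part in splicing (chromosome 15, 25068784 to 25223870, plus strand), was lower at each later day. Its WT levels were 956 and 927 CPM at day 0, 409.7 and 421 at day 2, 279 and 263 at day 6 and 239.7 and 225 at day 10, a log2 fold change of -1.96 ± 0.10 over the 10 days (adjusted p = 4.36e-08). The rows of SNRPN and SNURF, which share transcripts, held identical counts and cannot be separated.

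At day 0 the 3 knockdown lines differed from WT cells most clearly in PEG3. WT libraries held 181 and 192 PEG3 counts (4.83 and 5.02 CPM). NKX2-5 shRNA cells held 2 and 30 (0.0513 and 0.537 CPM), ZEB2 shRNA cells 16 and 36 (0.179 and 0.544 CPM), and ZNF503 shRNA cells 25 and 34 (0.562 and 0.470 CPM). All 6 knockdown libraries were below both WT libraries. The log2 fold changes were -3.95 ± 0.60 in NKX2-5 shRNA (adjusted p = 0.00167), -3.84 ± 0.56 in ZEB2 shRNA (adjusted p = 0.00314) and -3.27 ± 0.55 in the ZNF503 shRNA line (adjusted p = 0.00702). The NKX2-5 shRNA value was -3.21 without replicate 1 of that line and -6.54 without replicate 2, the ZEB2 shRNA value -3.21 and -4.79 likewise, and all 4 passed 5% FDR. The ZNF503 shRNA value missed 5% FDR without replicate 1 (-3.40) or replicate 2 (-3.12) of that line. The 3 comparisons share the same WT libraries, so a high PEG3 level of the WT line and a low level of 3 knockdown lines cannot be told apart from these ratios. No difference in PEG3 among the 3 knockdown lines passed the test at day 0.

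**Figure D2:**
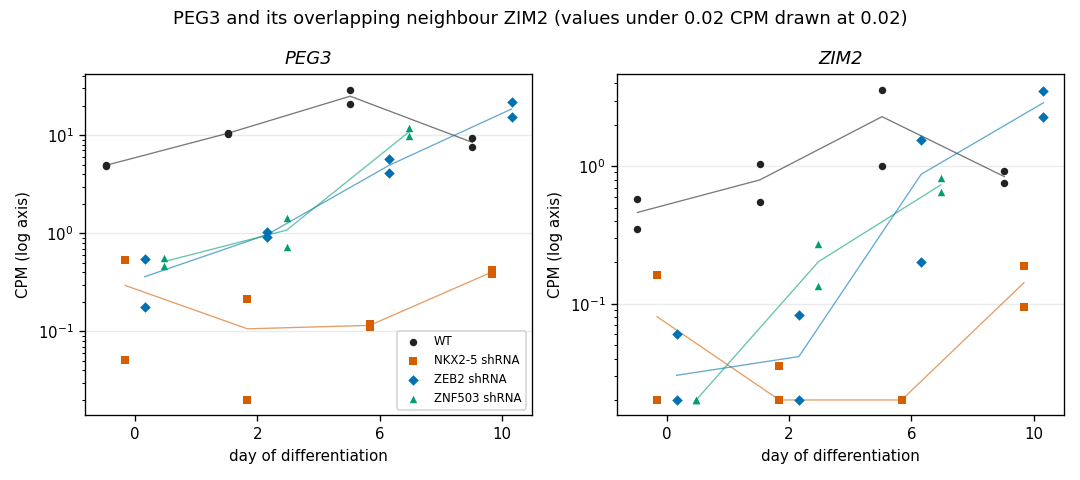
PEG3 and the overlapping gene ZIM2 (CPM, log axis) by day, 1 point per library with lines through group means. PEG3 was at 4.83 and 5.02 CPM in WT cells at day 0 and at most 0.562 CPM in every knockdown library, and it stayed at or below 0.537 CPM in NKX2-5 shRNA cells at all 4 days.

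The later course of PEG3 separated the lines. In NKX2-5 shRNA cells it was at 0.213 and 0 CPM at day 2, 0.110 and 0.120 at day 6 and 0.382 and 0.425 at day 10, with at most 30 counts in any of its 8 libraries. The log2 fold change against WT was -7.71 ± 0.36 at day 6 (adjusted p = 8.01e-09) and -4.37 ± 0.39 at day 10 (adjusted p = 0.000366). ZEB2 shRNA cells climbed from 1.02 and 0.920 CPM at day 2 to 4.15 and 5.75 at day 6 and 15.3 and 21.8 at day 10, where both libraries were above the WT values of 9.28 and 7.64 CPM. The log2 fold change therefore passed from -2.38 ± 0.24 at day 6 (adjusted p = 4.86e-05) to 1.12 ± 0.31 at day 10 (adjusted p = 0.0460). The day 10 call was lost without any 1 of its 4 libraries. ZNF503 shRNA cells reached 11.9 and 9.73 CPM at day 6, 1.22 ± 0.22 below WT on the log2 scale (adjusted p = 0.000665).

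ZIM2, whose transcripts start with those of PEG3 and overlap it on the same strand, was sparse. Its WT libraries held 13 and 22 counts at day 0 and 23 and 149 at day 6. ZNF503 shRNA cells had no count at day 0, and WT cells were at least 6.84-fold above the floor of 3 counts in a library. NKX2-5 shRNA cells had no count at day 6, and WT cells were at least 20.8-fold above that floor. In ZEB2 shRNA cells at day 10 ZIM2 reached 2.29 and 3.50 CPM beside 0.928 and 0.753 in WT cells, which did not pass the test (adjusted p = 0.0638). Reads in shared exons cannot be assigned to 1 of these 2 genes.

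Among the other 9 genes, line differences at day 0 were smaller. MEG3 was not tested, with 0 or 1 count in each of the 8 libraries. At the study's threshold of 2-fold and 10% FDR, 2 of 10 genes were called in NKX2-5 shRNA against WT cells (4.03% of 16891 genes tested), 2 in the ZEB2 shRNA line (2.2%) and 2 in the ZNF503 shRNA line (2.56%), PEG3 being 1 of them each time. The other one was DLK1 in NKX2-5 shRNA cells, at 0.590 and 0.466 CPM beside 0.961 and 1.18 in WT cells (log2 fold change -1.05 ± 0.36, adjusted p = 0.0658). In ZEB2 shRNA cells it was H19, at 1.21 and 0.846 CPM beside 2.11 and 2.28 (-1.11 ± 0.29, adjusted p = 0.0541). In ZNF503 shRNA cells it was IGF2, at 2.70 and 2.46 CPM beside 1.44 and 1.10 (1.01 ± 0.27, adjusted p = 0.0433). In each pair the libraries did not overlap, which describes the same values that were called. The DLK1 and H19 values miss 5% FDR, and the IGF2 value missed it without any 1 of its 4 libraries, with values from 0.83 to 1.22.

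At 5% FDR the NKX2-5 shRNA line also had lower PEG10 and MEST and higher NNAT at day 0. PEG10 was at 158 and 190.2 CPM beside 262 and 251 in WT cells (log2 fold change -0.58 ± 0.10, adjusted p = 0.00292). NNAT was at 122 and 116 CPM beside 81.6 and 76.0 (0.58 ± 0.09, adjusted p = 0.00203). MEST was at 218 and 222 CPM beside 273 and 274 (-0.33 ± 0.09, adjusted p = 0.0219). The NNAT value missed 5% FDR without WT replicate 2, and the MEST value without WT replicate 1 or 2. At this threshold 15.9% of all genes tested passed in that comparison, against 3.93% for ZEB2 shRNA and 7.53% for ZNF503 shRNA cells. SNRPN and CDKN1C passed in none of the 6 comparisons between lines at day 0, with SNRPN between 917 and 994 CPM in the 8 libraries.

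Comparisons among the knockdown lines, which do not use the WT libraries, were made for the 9 genes tested at day 0. These include PEG3 and leave out MEG3. DLK1 was 1.39 ± 0.34 lower on the log2 scale in NKX2-5 shRNA than in ZEB2 shRNA cells (adjusted p = 0.00943), the only call at 2-fold and 10% FDR among the 9 genes tested, where 7.58% of all genes were called. At 5% FDR 5 genes passed, where 31.2% of all genes did. Of these, H19 and PEG10 missed 5% FDR in 1 fit of all 15 groups (adjusted p = 0.108 and 0.259). Both also missed it with a replicate block (adjusted p = 0.0697 and 0.0604). H19 missed it with DESeq2 as well (adjusted p = 0.0564), without TMM factors (0.0711) and with all rows of a symbol summed (0.0662). The DLK1 value was -1.21 without NKX2-5 shRNA replicate 2. Between ZEB2 shRNA and ZNF503 shRNA cells H19 was the only call, 1.12 ± 0.28 lower in ZEB2 shRNA cells (adjusted p = 0.0135, 7.61% of all genes), and 2 genes passed 5% FDR (25.5% of all genes). Without ZEB2 shRNA replicate 2 the H19 value was -0.89, short of 2-fold. IGF2, the other gene at 5% FDR, missed it in the fit of all 15 groups (-0.86, adjusted p = 0.0509). Between NKX2-5 shRNA and ZNF503 shRNA cells no gene was called (6.99% of all genes), also with DESeq2 and edgeR's exact test, while 4 passed 5% FDR, the same number as at an unadjusted p under 0.05, where 25.8% of all genes did. These 4 were IGF2, PEG10 and MEST, lower in NKX2-5 shRNA cells, and NNAT, higher. In the fit of all 15 groups IGF2 and MEST missed 5% FDR (adjusted p = 0.0508 and 0.120).

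**Figure D3:**
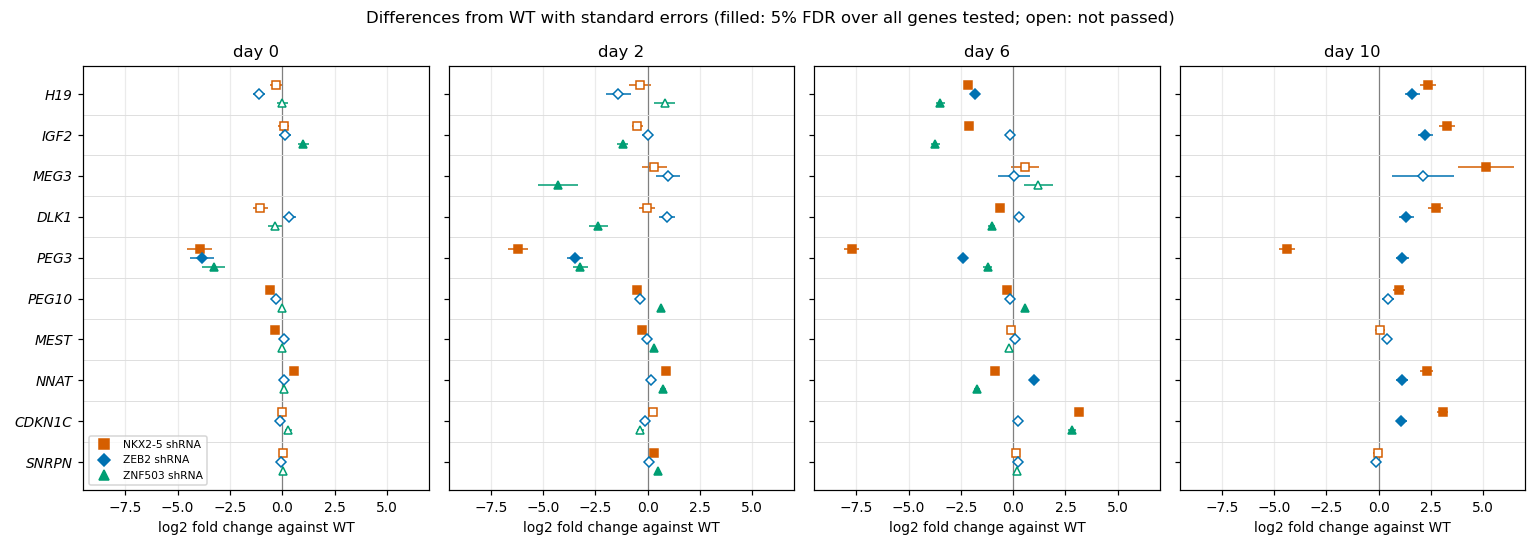
Log2 fold change of each gene against WT cells of the same day, with bars of 1 standard error, for NKX2-5 shRNA, ZEB2 shRNA and ZNF503 shRNA cells. Filled symbols passed 5% FDR over all genes tested. PEG3 lay left of 0 in each line at days 0, 2 and 6, and at day 10 the 7 higher genes of NKX2-5 shRNA cells contrasted with PEG3 at -4.37.

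At day 2, cells of the WT line expressed markers of mesendoderm (TBXT, MIXL1, EOMES and GSC) at a summed 778 to 819 CPM, and ZNF503 shRNA cells at 375 to 474 CPM, with 4 of 4 lower at 5% FDR. Markers of fibroblasts and smooth muscle (COL1A1, COL1A2, COL3A1, ACTA2 and DCN) summed to 32.8 to 37.6 CPM in ZNF503 shRNA beside 129 to 132 CPM in WT cells, and both of those tested were lower. At 4-fold and 10% FDR, 1 imprinted gene was called in NKX2-5 shRNA cells (1.19% of 16521 genes), 1 in the ZEB2 shRNA line (0.133%) and 3 in the ZNF503 shRNA line (2.8%). All were lower, where 0.708%, 0.121% and 1.99% of all genes were called lower in that order of lines. PEG3 was called in each line: at -6.20 ± 0.48 in NKX2-5 shRNA, -3.47 ± 0.37 in ZEB2 shRNA and -3.22 ± 0.36 in ZNF503 shRNA cells (adjusted p = 1.98e-06, 0.000232 and 1.33e-05). The NKX2-5 shRNA value rests on replicates of 12 and 0 counts and gives no bound without the first, and the ZNF503 shRNA value was -3.88 without that line's replicate 1. In ZNF503 shRNA cells DLK1 and MEG3, neighbours on chromosome 14, were called beside it. DLK1 was at 0.460 and 0.0900 CPM beside 1.58 and 1.96 in WT cells (log2 fold change -2.36 ± 0.46, adjusted p = 0.00146), and the value was -4.24 without ZNF503 shRNA replicate 1. MEG3 had 2 and 0 counts beside 11 and 7, which made WT cells 21.1-fold higher with a 95% counting interval of 5.06 to 187.8 (adjusted p = 0.00363). Without ZNF503 shRNA replicate 1, which held both counts, the MEG3 value missed 5% FDR. DIO3, at the far end of the same cluster and encoding a deiodinase that inactivates thyroid hormone, was at 3.94 and 3.37 CPM beside 24.95 and 24.2 (-2.78 ± 0.17, adjusted p = 3.81e-08). The lower mesendoderm, fibroblast and smooth muscle markers move with these 3 differences, and their part in them was not tested. ZNF503 itself was not lower in its line by the test at day 2.

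Smaller shifts at day 2 were frequent in 2 lines. At 5% FDR, 8 of 10 imprinted genes passed in ZNF503 shRNA (26.9% of all genes), 5 in NKX2-5 shRNA (26.7%) and 1 in ZEB2 shRNA cells (0.49%). In ZNF503 shRNA cells IGF2 was lower, at 1.56 and 2.205 CPM beside 3.89 and 4.17 in WT cells (log2 fold change -1.20 ± 0.27, adjusted p = 0.00367), which missed 5% FDR without ZNF503 shRNA replicate 1. PEG10, NNAT, SNRPN and MEST were higher there, with log2 fold changes of 0.64, 0.71, 0.49 and 0.32, of which MEST missed 5% FDR without ZNF503 shRNA replicate 2 or WT replicate 2. NNAT was also higher in NKX2-5 shRNA cells, at 34.1 and 40.8 CPM beside 19.4 and 20.6 (0.87 ± 0.14, adjusted p = 0.000495), while PEG10 was lower by 0.49 ± 0.10 on the log2 scale (adjusted p = 0.00264). MEST was lower and SNRPN higher in that line. PEG10, MEST and SNRPN missed 5% FDR in 1 fit of all 15 groups (adjusted p = 0.0736, 0.250 and 0.0630).

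DIO3 also separated the lines before differentiation. At day 0 it was at 3.21 and 3.61 CPM in ZEB2 shRNA cells, at 0.694 and 0.942 in WT cells, at 0.128 and 0.143 in NKX2-5 shRNA and at 0.180 and 0.110 in ZNF503 shRNA cells. The log2 fold changes against WT were 2.03 ± 0.31 (adjusted p = 0.00359), -2.58 ± 0.43 (adjusted p = 0.00272) and -2.55 ± 0.41 (adjusted p = 0.00551) in that order. The values of NKX2-5 shRNA and ZNF503 shRNA cells overlapped, and ZEB2 shRNA cells were highest. DLK1 stood at 1.41 and 1.34 CPM in ZEB2 shRNA and at 0.590 and 0.466 in NKX2-5 shRNA cells. Marker sums also differed between the lines at day 0. Mesendoderm markers summed to 9.57 to 9.70 CPM in ZEB2 shRNA, 6.54 to 6.91 in WT, 3.47 to 3.82 in ZNF503 shRNA and 1.90 to 2.70 in NKX2-5 shRNA cells. Liver or yolk sac markers (AFP, APOA2, TTR, ALB and APOA1) summed to 12.8 CPM in both ZEB2 shRNA libraries, 4.004 to 4.85 in NKX2-5 shRNA, 1.96 to 2.64 in WT and 0.400 to 0.562 in ZNF503 shRNA cells. At 5% FDR 1 of 4 mesendoderm and 3 of 3 tested liver or yolk sac markers were higher in ZEB2 shRNA cells, and 3 of 4 mesendoderm markers were lower in NKX2-5 shRNA cells. The part of such cells in the day 0 differences was not tested.

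At day 6, the cardiac program of NKX2-5 shRNA and ZNF503 shRNA cells was low, and the chromosome 11 genes moved in opposite directions. Cardiomyocyte markers summed to 7602 to 9389.8 CPM in WT, 4086 to 4498 in ZEB2 shRNA, 149 to 198 in ZNF503 shRNA and 36.3 to 45.2 CPM in NKX2-5 shRNA cells. At 8-fold and 1% FDR, 1 imprinted gene was higher and 1 lower in NKX2-5 shRNA cells (4.71% of 16443 genes, 1.29% higher and 3.42% lower), 2 were lower in ZNF503 shRNA cells (3.91%, 2.91% lower) and none was called in ZEB2 shRNA cells (0.462%), where 3 had an unadjusted p under 0.05 and DESeq2 and edgeR's exact test also called none. With no fold threshold and 5% FDR, 7 genes passed in NKX2-5 shRNA (49.1% of all genes), 7 in ZNF503 shRNA (55.7%) and 3 in ZEB2 shRNA cells (11%).

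CDKN1C was high in both lines. Its levels were 691 and 707 CPM in NKX2-5 shRNA and 587 and 522 in ZNF503 shRNA cells, beside 63.1 and 94.0 in WT and 76.8 and 105 in ZEB2 shRNA cells. The 4 high libraries did not overlap the other 4. The log2 fold changes against WT were 3.14 ± 0.19 (adjusted p = 8.66e-08) and 2.81 ± 0.19 (adjusted p = 2.59e-07). KCNQ1OT1, the paternally expressed antisense RNA of the control region of the CDKN1C cluster, was picked out after its values were seen. It lies within KCNQ1 on the opposite strand, and whether counting used strand is not given, so KCNQ1 reads may be included. It stood at 1562 and 1278 CPM in NKX2-5 shRNA and 1316 and 1109 in ZNF503 shRNA cells beside 441 and 492 in WT cells, log2 fold changes of 1.60 ± 0.13 (adjusted p = 9.24e-07) and 1.37 ± 0.13 (adjusted p = 3.76e-06). Both fall short of 8-fold.

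H19 and IGF2 were low in the same 2 lines. IGF2 was at 30.6 and 38.6 CPM in NKX2-5 shRNA and 13.9 and 9.08 in ZNF503 shRNA cells, beside 132 and 169 in WT and 126 and 143 in ZEB2 shRNA cells. The log2 fold change was -2.13 ± 0.19 in NKX2-5 shRNA (adjusted p = 1.81e-06) and -3.73 ± 0.21 in ZNF503 shRNA cells (adjusted p = 5.27e-08). H19 was at 77.8 and 88.3 CPM in NKX2-5 shRNA, 35.5 and 30.9 in ZNF503 shRNA and 95.7 and 115 in ZEB2 shRNA cells beside 276 and 464 in WT cells. Its log2 fold changes were -2.16 ± 0.20, -3.48 ± 0.22 and -1.81 ± 0.20 in that order, with adjusted p = 2.89e-06, 1.25e-07 and 0.000101. ZEB2 shRNA cells therefore had an H19 level below both WT libraries, while their IGF2 values overlapped those of WT cells.

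DLK1 followed IGF2 to a smaller extent. It was lower by 0.64 ± 0.16 in NKX2-5 shRNA (adjusted p = 0.00489) and by 1.02 ± 0.16 in ZNF503 shRNA cells on the log2 scale (adjusted p = 0.000201), and the first of these missed 5% FDR without NKX2-5 shRNA replicate 2. NNAT was at 18.9 and 19.5 CPM in NKX2-5 shRNA, 10.4 and 10.8 in ZNF503 shRNA, 33.0 and 37.3 in WT and 69.0 and 70.9 in ZEB2 shRNA cells, with no overlap between lines. It was the gene of the 10 that rose in ZEB2 shRNA cells at day 6 (1.00 ± 0.13, adjusted p = 0.000305). PEG10 was 0.56 ± 0.11 higher in ZNF503 shRNA cells (adjusted p = 0.00121). In NKX2-5 shRNA cells it was lower at 5% FDR. It missed that in 1 fit of all 15 groups (-0.30, adjusted p = 0.144) and without TMM factors (-0.27, adjusted p = 0.0690). MEST, SNRPN and MEG3 passed 5% FDR in no line at day 6.

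Markers of other cell types also differed between the lines. Markers of liver or yolk sac summed to 4111 to 4297 CPM in NKX2-5 shRNA and 3249 to 3298 in ZNF503 shRNA cells at day 6, beside 375 to 784 in WT and 396 to 602 in ZEB2 shRNA cells. At 5% FDR 5 of 5 rose in NKX2-5 shRNA and 4 of 5 in ZNF503 shRNA cells, and none was at 0 in any of these libraries. Markers of fibroblasts and smooth muscle went the other way, at 172 to 253 and 83.5 to 130.1 CPM beside 1091 to 1150.1 in WT cells, with 4 of 5 and 5 of 5 lower. The same markers summed to 449 to 514 CPM in ZEB2 shRNA cells, whose IGF2 values overlapped those of WT cells. Their part in the CDKN1C, IGF2 and H19 differences was not tested.

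At day 10 most of the set was higher in the remaining 2 knockdown lines. In NKX2-5 shRNA cells 2 genes were higher and 1 lower at 8-fold and 1% FDR (7.31% of 17004 genes, 4.46% higher and 2.85% lower), and 7 higher and 1 lower at 5% FDR, where 43.9% of all genes passed and 23.3% were higher. In ZEB2 shRNA cells none was called at 8-fold (1.46%), also by DESeq2 and edgeR's exact test, and 6 were higher at an unadjusted p under 0.05 and at 5% FDR, against 18.2% of all genes in either direction and 10.6% higher. The median log2 fold change of the 10 genes was 2.33 in NKX2-5 shRNA and 1.11 in ZEB2 shRNA cells, beside 0.03 over all genes in each. Both comparisons use the same 2 WT libraries, and ZEB2 itself did not pass the test in its line at this day.

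IGF2 reached 3060.0 and 6308 CPM in NKX2-5 shRNA and 2384 and 2241 in ZEB2 shRNA cells, beside 516 and 462 in WT cells. The log2 fold changes were 3.26 ± 0.37 (adjusted p = 0.000830) and 2.23 ± 0.36 (adjusted p = 0.00787), the first being 2.66 without NKX2-5 shRNA replicate 2. H19 stood at 1813 and 3067 CPM, 1499.7 and 1419.6 CPM and 616 and 336 CPM in the same order of lines, 2.36 ± 0.37 (adjusted p = 0.00269) and 1.61 ± 0.36 (adjusted p = 0.0243) above WT. CDKN1C stood at 843 and 542, 180.2 and 174, and 82.0 and 84.4 CPM, with log2 fold changes of 3.06 ± 0.26 (adjusted p = 0.000331) and 1.08 ± 0.25 (adjusted p = 0.0255). For these 3 genes every knockdown library was above both WT libraries, which restates the tested values and adds no support.

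DLK1 stood at 301 and 201 CPM in NKX2-5 shRNA, 103 and 87.3 in ZEB2 shRNA and 50.9 and 25.1 in WT cells. It was 2.72 ± 0.37 (adjusted p = 0.00155) and 1.31 ± 0.35 (adjusted p = 0.0430) above WT on the log2 scale, or 3.33 and 1.92 without WT replicate 3. MEG3 held 98 and 20 counts in NKX2-5 shRNA cells beside 0 and 2 in WT cells, 40.2-fold higher with a 95% counting interval of 10.9 to 335.8 (adjusted p = 0.0184), and it missed 5% FDR without WT replicate 3. The replicates of NKX2-5 shRNA cells were far apart in MEG3, at 4.67 and 0.945 CPM.

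NNAT was 2.29 ± 0.31 higher in NKX2-5 shRNA (60.6 and 53.7 CPM, adjusted p = 0.00146) and 1.10 ± 0.30 higher in ZEB2 shRNA cells (23.3 and 27.3 CPM, adjusted p = 0.0431) than in WT cells (14.9 and 8.17 CPM). PEG10 stood at 494 and 272 CPM in NKX2-5 shRNA cells beside 192 and 195 in WT cells (0.99 ± 0.29, adjusted p = 0.0276), and this missed 5% FDR without WT replicate 3 (adjusted p = 0.126) or 4 (adjusted p = 0.116). MEST and SNRPN passed in neither line, and their values were 161 to 261 and 192 to 254 CPM over all 6 libraries of day 10. The 6 values of ZEB2 shRNA cells that passed 5% FDR were lost when 1 library was left out, each in at least 3 of 4 cases.

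**Figure D4:**
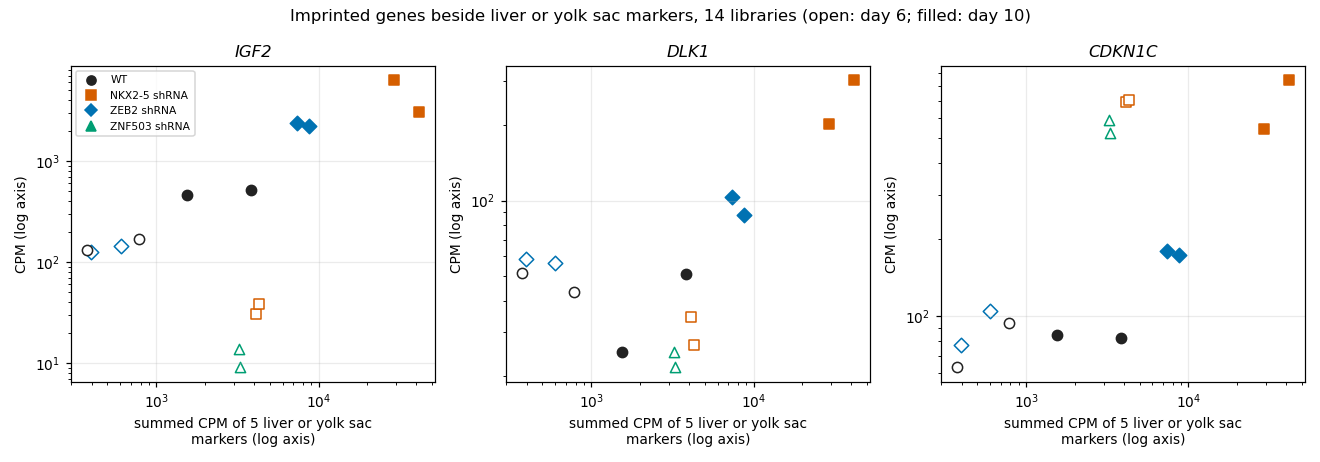
IGF2, DLK1 and CDKN1C (CPM) against the summed CPM of 5 liver or yolk sac markers, both on log axes, 1 point per library at day 6 (open) and day 10 (filled). The points of NKX2-5 shRNA and ZNF503 shRNA cells at day 6 combine marker sums of 3249 to 4297 CPM with IGF2 of at most 38.6 CPM and CDKN1C of at least 522 CPM.

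Liver or yolk sac markers at day 10 summed to 29296 to 41388 CPM in NKX2-5 shRNA, 7337 to 8719.6 in ZEB2 shRNA and 1549.6 to 3853 in WT cells, and 5 of 5 and 3 of 5 passed 5% FDR. AFP, the fetal serum protein of yolk sac and liver, contributed 19769 to 30450 CPM in NKX2-5 shRNA cells. Blood markers (HBE1, HBG1, HBZ, GATA1 and KLF1) summed to 1382 to 1600.1 CPM there and to at most 61.9 CPM in the other libraries of that day. Fibroblast and smooth muscle markers summed to 2891 to 5399.6 CPM in NKX2-5 shRNA and 5448 to 6118 in ZEB2 shRNA cells beside 1182 to 1743 in WT cells. Cardiomyocyte markers were at 46.2 to 302 and 3287 to 4929 beside 11574 to 14179.6 CPM. The liver or yolk sac sums put the 3 lines of day 10 in the order of IGF2, while at day 6 NKX2-5 shRNA and ZNF503 shRNA cells had high sums and low IGF2. Within lines at day 10 the order could differ. In NKX2-5 shRNA cells replicate 1 had a sum of 41388 with IGF2 at 3060.0 CPM, and replicate 2 had 29296 with 6308 CPM. ZEB2 shRNA replicates 3 and 4 also ran opposite (7337 with 2384 and 8719.6 with 2241 CPM), while WT replicates did not. The part of these cell types in the day 10 differences was not tested.

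Whether a line difference at a later day was already that of day 0 was asked with an interaction term in a fit of all 15 groups, at 5% FDR. From day 0 to day 6, 5 of 10 genes changed differently in NKX2-5 shRNA than in WT cells (33.1% of 18481 genes), 5 in ZNF503 shRNA (30.8%) and 1 in ZEB2 shRNA cells (3.9%). In both of the first 2 lines these were H19, IGF2, PEG3, NNAT and CDKN1C, and PEG3 had opposite signs in them, each missing 5% FDR when certain libraries were left out. From day 0 to day 10, 6 genes changed differently in NKX2-5 shRNA (46.8%) and 6 in ZEB2 shRNA cells (23.4%). Those of NKX2-5 shRNA cells did not include PEG3, whose term did not pass the test. The PEG3 term of ZEB2 shRNA cells was 4.93 ± 0.67 (adjusted p = 1.54e-05).

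Neighbouring genes of the same clusters were examined as a list of 31, of which 28 were in the table and 20 to 22 passed the filter on low counts at a given day. At day 0, 2 of 20 were called in NKX2-5 shRNA cells (4.03% of all genes), 2 in the ZEB2 shRNA line (2.2%) and 3 in the ZNF503 shRNA line (2.56%). At later days at most 2 were called in a line, where between 0.133% and 7.31% of all genes were. Beside ZIM2 and DIO3, those named by their size of change were INS-IGF2, which shares exons with IGF2, IGF2-AS, lower in ZNF503 shRNA cells at day 6, and TFPI2, a protease inhibitor near PEG10. TFPI2 was 1.05 ± 0.16 higher in NKX2-5 shRNA cells at day 0 (13.99 and 16.2 CPM beside 7.28 and 7.14, adjusted p = 0.00158) and 3.27 ± 0.57 higher at day 10 (adjusted p = 0.00407). SGCE, BLCAP and UBE3A were called in no comparison with WT cells of the same day. Of 12 imprinted genes at other loci, 1 was called at day 0, GNAS-AS1 in ZNF503 shRNA cells (2.56% of all genes, -1.20 ± 0.20, adjusted p = 0.00702), and 1 later, PLAGL1 in NKX2-5 shRNA cells at day 2 (1.19% of all genes, -2.12 ± 0.42, adjusted p = 0.00231).

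Factors that keep or set imprints were given as a list of 9. At day 0, ZFP57 was at 3.00 and 2.90 CPM in NKX2-5 shRNA and 2.30 and 2.46 in ZEB2 shRNA cells, beside 0.294 and 0.576 in WT and 0.360 and 0.138 in ZNF503 shRNA cells. The log2 fold changes against WT were 2.73 ± 0.40 (adjusted p = 0.00143) and 2.42 ± 0.40 (adjusted p = 0.00577). NLRP7, a maternal-effect gene, was at 7.29 and 10.2 CPM in NKX2-5 shRNA beside 1.41 and 1.18 in WT cells (2.74 ± 0.29, adjusted p = 0.000197). DNMT1 and UHRF1, the maintenance methyltransferase and its cofactor, were lower in NKX2-5 shRNA cells at day 0 by 0.58 ± 0.12 (adjusted p = 0.00690) and 0.59 ± 0.13 (adjusted p = 0.0117) on the log2 scale. Both fall short of 2-fold and so were not called. Other factors lower at 5% FDR in NKX2-5 shRNA cells are not named. In total 2 of 9 factors were higher and 4 lower at 5% FDR in that line (15.9% of all genes passed), 1 and 0 in the ZEB2 shRNA line (3.93%) and 0 and 1 in the ZNF503 shRNA line (7.53%).

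Across the 15 group means, which share lines and days, H19, IGF2 and DLK1 moved most alike, with a Pearson correlation of log2 CPM of 0.93 between H19 and IGF2, 0.91 between H19 and DLK1 and 0.93 between IGF2 and DLK1. SNRPN ran opposite to them, at -0.87 with IGF2 and -0.89 with DLK1. MEG3 correlated with DLK1 at 0.67. Outside each gene's own locus, the genes of most similar course were COL1A1 (0.99) for IGF2, CPED1 (0.98) for H19, FMOD (0.98) for DLK1, PRR5 (0.99) for CDKN1C, SEPHS1 (0.99) for SNRPN and ZMYND8 (0.96) for PEG10. They were PRDM1 (0.95) for MEG3, MICOS10-NBL1 (0.93) for NNAT, TMT1A (0.90) for MEST and CYP4F30P (0.83) for PEG3, the lowest of the 10. COL1A1 is among the fibroblast and smooth muscle markers listed above, as is COL3A1, at rank 3 for H19 (0.97). The part of such cells in these correlations was not tested.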

How the data were processed

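Total RNA was sequenced as stranded paired-end libraries. Per the labels and the study's methods, the authors aligned reads to hg19 (GRCh37) with TopHat2 2.0.14 (Bowtie2 2.2.1.0, SAMtools 0.1.19.0), kept the best hit and deposited raw read counts per RefSeq gene region from RSeQC. Whether counting used strand is not given in the sources used here, so genes overlapping on opposite strands cannot be separated.

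Of 41627 accessions, 96.8% matched a symbol, and the row with the largest total represented each gene. At day 10, replicates 1 and 2 of the WT and ZEB2 shRNA lines came from 4 columns with 1077 more rows than accessions and were not used. Counts were fitted with edgeR 4.0.16 in R 4.3.3 (filterByExpr, TMM, quasi-likelihood test, prior count 0.125, Benjamini-Hochberg), per day, over WT days and over all 15 groups. The calls used the study's thresholds: 2-fold and 10% FDR at day 0, 4-fold and 10% at day 2, 8-fold and 1% at days 6 and 10. Fits were tested on simulated data. Alternatives were DESeq2 1.42.0, edgeR's exact test, no TMM, no filter, summed rows, a replicate block and leaving out each library.

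Members and lists were chosen with earlier results of these data known. All members are named, and of other lists up to 4 called genes per comparison by size. DNMT1, UHRF1, KCNQ1OT1, SGCE, BLCAP and UBE3A are named outside that rule. The study describes its replicates as biological, without saying whether cultures were separate, and p-values measure the spread between these libraries. Intervals and floors cover counting error only. Where libraries are said not to overlap, this describes the values the tests used. The share of all genes without overlap was not computed.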

Additional observations from a re-analysis of the deposited data

Results flagged for a closer look

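For each gene and line, the change from day 0 was compared with that of WT cells by an interaction term in the edgeR fit of all 15 groups (quasi-likelihood test, Benjamini-Hochberg adjustment), and 23 terms passed 5% FDR. All values are differences of log2 fold changes, knockdown line minus WT.

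From day 0 to day 6 in NKX2-5 shRNA cells, the term was -1.90 ± 0.42 for H19 (adjusted p = 0.00141) and -2.20 ± 0.42 for IGF2 (adjusted p = 0.000302). It was -1.47 for NNAT, 3.14 for CDKN1C and -3.79 ± 0.90 for PEG3 (adjusted p = 0.00252). Without NKX2-5 shRNA day 0 replicate 2, which held 30 of the 32 PEG3 counts of that group, the PEG3 term was -1.20 and missed 5% FDR. In ZNF503 shRNA cells the terms were -3.49 for H19, -4.73 for IGF2, -1.83 for NNAT and 2.53 for CDKN1C. PEG3 had a term of 2.05 ± 0.65 there (adjusted p = 0.0195), which missed 5% FDR without ZNF503 shRNA day 0 replicate 2, WT day 0 replicate 2, ZNF503 shRNA day 6 replicate 1 or WT day 6 replicate 1, and with all rows of a symbol summed (1.82 to 2.00, adjusted p from 0.0511 to 0.0954). In ZEB2 shRNA cells the term passed for NNAT, at 0.87 ± 0.23 (adjusted p = 0.0326), and missed 5% FDR when any 1 of 7 of its 8 libraries was left out.

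From day 0 to day 10 in NKX2-5 shRNA cells the terms were 2.61 for H19, 3.17 for IGF2, 3.73 for DLK1, 1.53 for PEG10, 1.66 for NNAT and 3.04 for CDKN1C. In ZEB2 shRNA cells they were 2.68 for H19, 2.08 for IGF2, 4.93 for PEG3, 0.71 for PEG10, 0.96 for NNAT and 1.17 for CDKN1C. The PEG10 term of ZEB2 shRNA cells missed 5% FDR when any 1 of 5 of its 8 libraries was left out (0.67 to 0.77). Without WT day 10 replicate 3 the NNAT terms were 2.26 in NKX2-5 shRNA and 1.56 in ZEB2 shRNA cells, and the DLK1 term was 4.41. H19 and IGF2 of NKX2-5 shRNA cells thus had negative terms at day 6 and positive terms at day 10.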

How the results depend on the processing

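None of the 113 log2 fold changes that passed 5% FDR changed sign under the alternatives run, and 77 passed under every one. With 5% FDR and no fold threshold, the number of genes called against WT was 4 (NKX2-5 shRNA) and 1 (ZEB2 shRNA) at day 0, 5 (NKX2-5 shRNA) and 8 (ZNF503 shRNA) at day 2, 7, 3 and 7 at day 6 (NKX2-5, ZEB2 and ZNF503 shRNA), and 8 and 6 at day 10 (NKX2-5 and ZEB2 shRNA). It was 5, 4 and 2 for NKX2-5 against ZEB2, NKX2-5 against ZNF503 and ZEB2 against ZNF503 shRNA cells, and 8, 10 and 9 for WT cells at days 2, 6 and 10. The shares of all genes at this threshold ranged from 0.49% for ZEB2 shRNA cells at day 2 to 73.8% for WT cells at day 10. In 1 fit of all groups each knockdown line had 1 call at day 0, DESeq2 gave 1 for NKX2-5 shRNA cells, and without TMM factors NKX2-5 against ZNF503 shRNA cells had 1. The cause was not tested.

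With 1 library left out a group holds 1 library, so no counts of calls are given for these fits. The count moved in at least 1 such fit for each knockdown line against WT cells at day 0. It also moved for ZNF503 shRNA cells at days 2 and 6, and for NKX2-5 shRNA cells at days 6 and 10. Between knockdown lines at day 0 the count moved in each pair. It moved for WT cells at days 2 and 10 against day 0, and for each interaction to day 6 or day 10. The count stayed the same for NKX2-5 shRNA cells at day 2, ZEB2 shRNA cells at days 2, 6 and 10, and WT cells at day 6.

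The replicate block moved no count of calls, with 2 genes called at day 0 in NKX2-5 shRNA cells with it and without it. Same-numbered replicates did not deviate together (correlations from -0.13 to 0.12). These correlations cannot show whether same-numbered cultures were run together, so their pairing stays unknown. No paired analysis was possible for NKX2-5 shRNA cells at day 10 or WT cells at day 10 because the groups share no replicate number. MEG3 and ZIM2 had 0 to 3 counts in many libraries.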
